A study of Mus musculus with 24 samples.

Results

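The genes described here are 9 markers and regulators of the oligodendrocyte lineage, the cells that insulate axons with myelin: *Olig2*, *Olig1*, *Nkx2-2*, *Sox10*, *Pdgfra*, *Cspg4*, *Gpr17*, *Bcas1* and *Mbp*. They were taken by gene symbol from count tables of 26411 genes, and each symbol had 1 row in every table. The tables hold messenger RNA of neural stem and progenitor cells (NSPCs), which were isolated from the dorsal telencephalon of C57BL/6 mouse embryos at embryonic day 12.5. The embryos were *Kat6a*+/+ (wildtype), *Kat6a*+/– (heterozygous) or *Kat6a*–/– (null), where the null allele lacks a run of exons, which ends the reading frame early within the catalytic part of the histone acetyltransferase KAT6A. Each genotype gave 4 libraries of proliferating NSPCs, kept for 3 days with growth factors, and 4 libraries of differentiating NSPCs, kept for 3 days on poly-L-ornithine and laminin with 1% serum in place of the growth factors. Cultures were made from the mutant embryos themselves, so the genotype was present before the cells were put in culture. Differentiating cultures are a mixture of cell types, so fewer cells of a type and less RNA per cell cannot be told apart in any value given here. Proliferating and differentiating cells were extracted with different RNA kits, and the effects of kit and of condition cannot be told apart either.

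Oligodendrocytes arise in steps. *Olig2* and *Olig1* encode basic helix-loop-helix transcription factors, and OLIG2 is needed for progenitors of this lineage to form, in a telencephalon where the first of them come from ventral, Sonic hedgehog-rich regions and later ones from the dorsal side. Oligodendrocyte progenitors divide under platelet-derived growth factor, which they sense through PDGFRA, and carry the proteoglycan NG2, the product of *Cspg4*. NKX2-2 and SOX10 act in the change from progenitor to myelinating cell, GPR17 and BCAS1 mark cells that have left the progenitor state and have not yet made myelin, and MBP is a main protein of compact myelin. Several of these genes are not private to the lineage: OLIG2 is also made by cultured neural progenitors, *Pdgfra* by mesenchymal cells, *Cspg4* by pericytes, *Sox10* and *Mbp* by Schwann cells, and the *Mbp* locus also yields the Golli transcripts, which are made outside the lineage.

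In proliferating *Kat6a*–/– NSPCs, *Olig1* and *Bcas1* were higher and *Gpr17* was lower than in *Kat6a*+/+ NSPCs. In differentiating *Kat6a*–/– NSPCs, *Olig2*, *Olig1*, *Nkx2-2*, *Pdgfra*, *Gpr17* and *Mbp* were lower and *Cspg4* was higher. Of these, the 4.86-fold lower level of *Pdgfra* was called in all alternative fits and with each library left out in turn. Every other call was lost in some alternative fit or with a library left out. Those of *Gpr17* and *Mbp* in differentiating cells came from overlapping libraries and were lost in edgeR and without quality weights. No member was called between *Kat6a*+/– and *Kat6a*+/+ NSPCs in either condition.

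A gene was called where its false discovery rate (FDR, the Benjamini-Hochberg adjusted p of limma over all genes tested) was under 0.05. *Sox10* had too few reads to be tested within a condition, so 8 of the 9 genes were tested there. Between proliferating *Kat6a*–/– and *Kat6a*+/+ NSPCs, 2 of the 8 were higher, where 16.2% of 12276 genes were, and 1 was lower, where 13.8% were. The libraries of the 2 genotypes did not overlap for 2 of the 9 members, as for 31.3% of all genes tested. In differentiating NSPCs, 1 of the 8 was higher, where 26.7% of 13339 genes were, and 6 were lower, where 27.7% were. Here the libraries did not overlap for 3 of the 9 members, as for 26.9% of all genes tested. The median log2 fold-change of the members was −0.15 in proliferating and −1.03 in differentiating NSPCs, beside −0.0045 and −0.02 over all genes. Against *Kat6a*+/– libraries, in the same fits, *Kat6a*–/– NSPCs gave 2 higher members (8.47% of all genes) and 1 lower (6.3%) in proliferating cells, and 1 higher (19.1%) and 4 lower (18.5%) in differentiating cells.

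**Figure D1:**
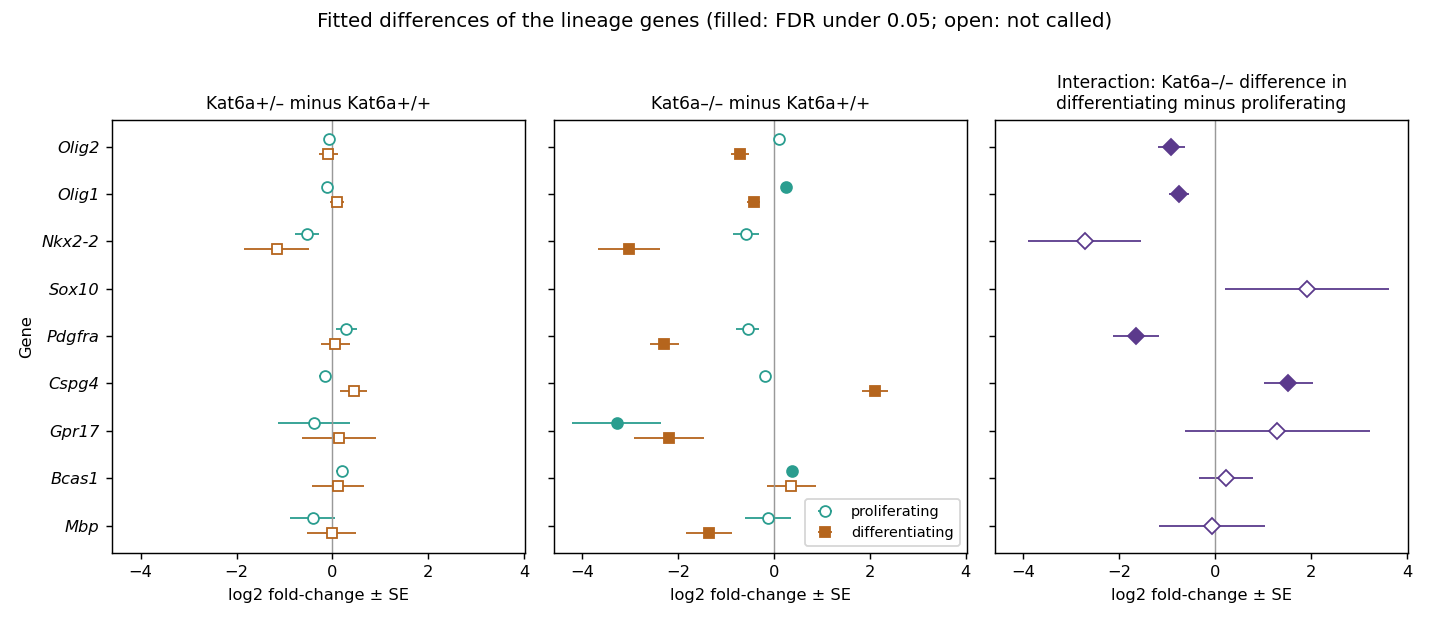
Fitted log2 fold-changes of the 9 genes with their standard errors (horizontal lines), for *Kat6a*+/– and *Kat6a*–/– against *Kat6a*+/+ NSPCs in both conditions and for the interaction of condition and null genotype. Filled symbols mark an FDR under 0.05: 7 differentiating and 3 proliferating values of the null genotype are filled, none of the heterozygous genotype are, and *Sox10* appears only in the interaction.

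For *Kat6a*+/– against *Kat6a*+/+ NSPCs, limma called 0 of 8 members in both conditions, beside 0% of all genes tested. Fitted log2 fold-changes ran from −0.53 (SE 0.25, *Nkx2-2*) to 0.29 (SE 0.21, *Pdgfra*) in proliferating cells and from −1.17 (SE 0.69, *Nkx2-2*) to 0.44 (SE 0.29, *Cspg4*) in differentiating cells. None of the 8 tested members had an unadjusted p under 0.05, which 912 and 1926 genes had. edgeR called 0 genes in both conditions, and DESeq2 called 28 and 8 genes, none of them a member. All 9 members had overlapping *Kat6a*+/– and *Kat6a*+/+ libraries in both conditions. These values do not show that the heterozygous levels were alike, since the errors of *Nkx2-2*, *Gpr17*, *Bcas1* and *Mbp* are wide in differentiating cells (SE 0.51 to 0.77).

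The 24 libraries held 7826660 to 40838203 counts each. *Kat6a* itself, counted over the whole gene with exons outside the deletion included, averaged 395 ± 16.7 CPM in proliferating wildtype and 355 ± 24.6 CPM in proliferating null cells (SD, n = 4, log2 fold-change −0.13, limma FDR 0.1). In differentiating cells it was at 267 ± 24.2 and 191 ± 43.1 CPM (−0.69, FDR 3.33e-05), so these counts do not by themselves check the genotype. The neural stem and progenitor markers *Sox2*, *Nes*, *Pax6*, *Vim*, *Fabp7* and *Msi1* together made up 5179 to 7994 CPM in proliferating and 6296 to 12134.5 CPM in differentiating libraries, with none of the 6 under 1 CPM in a whole group. In differentiating cells the sum was 6296 to 7932 CPM in wildtype and 8324 to 12134.5 CPM in null libraries, with no overlap. Between these genotypes, 2 of the 6 were higher and 3 lower in differentiating null cells, and 2 were higher and 2 lower in proliferating ones. Summed microglia markers were at 6.38 to 8.38 CPM in proliferating null libraries, above the 1.26 to 1.41 CPM of wildtype ones, with the 1 tested marker of the 6 (*P2ry12*) called higher, and stayed at or under 3.51 CPM in all other libraries. Astrocyte markers summed to 1449 to 2290 CPM in proliferating null and 820 to 1022 CPM in proliferating wildtype libraries, and of the 8 tested 5 were higher and 1 was lower (median log2 fold-change 1.05). Their part in the *Olig1* and *Bcas1* values of that comparison was not tested. Of 10 neuron markers 8 were tested in differentiating cells, and 2 were higher and 5 lower in *Kat6a*–/– than in *Kat6a*+/+ NSPCs, as were 1 and 4 of 9 astrocyte markers. The summed neuron markers overlapped there, at 464 to 777 CPM in null and 540 to 737 CPM in wildtype libraries. Beside all marker counts between these genotypes, 26.7% of all genes were higher and 27.7% lower in differentiating NSPCs. In proliferating NSPCs these shares were 16.2% and 13.8%. *Kat6a*–/– differentiating replicate 2 stood apart, with 7165 CPM of summed astrocyte markers where the other 11 differentiating libraries had 1969 to 3691 CPM. The differentiating fit gives each library a quality weight, and among the *Kat6a*–/– libraries replicate 3 held 69% of the weight and replicate 2 held 4.22%. Among the *Kat6a*+/+ libraries replicates 1 and 3 held 42% and 34.9%, and replicates 2 and 4 held 9.39% and 13.7%. Fitted fold-changes in differentiating NSPCs therefore lean on *Kat6a*–/– replicate 3 and on *Kat6a*+/+ replicates 1 and 3. They can differ from the ratio of mean levels.

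Levels are given as CPM, counts divided by the TMM-scaled library totals, and between genes as CPM per kilobase of the gene length in the tables. In proliferating *Kat6a*+/+ NSPCs the order of mean CPM per kb was *Olig1* (598 ± 52.4, SD, n = 4), *Olig2* (401 ± 15.9), *Bcas1* (29.0 ± 3.69), *Cspg4* (24.5 ± 4.71), *Nkx2-2* (9.87 ± 3.84), *Pdgfra* (8.99 ± 4.10), *Gpr17* (0.246 ± 0.152), *Sox10* (0.226 ± 0.129) and *Mbp* (0.170 ± 0.0773). *Olig1* and *Olig2* ranked 40 and 73 among 20951 protein-coding genes. The libraries of neighbours in this order overlapped for *Bcas1* and *Cspg4*, for *Nkx2-2* and *Pdgfra*, and among the last 3 genes. In differentiating *Kat6a*+/+ NSPCs the order was *Olig1* (458 ± 19.6), *Olig2* (87.1 ± 15.4), *Pdgfra* (4.85 ± 1.92), *Nkx2-2* (3.92 ± 3.42), *Cspg4* (3.37 ± 1.17), *Bcas1* (1.55 ± 1.02), *Mbp* (0.80 ± 0.521), *Gpr17* (0.0908 ± 0.0873) and *Sox10* (0.0160 ± 0.0219). There, neighbours were apart in all libraries from *Olig1* to *Olig2*, from *Olig2* to *Pdgfra* and from *Mbp* to *Gpr17*, and overlapped elsewhere.

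**Figure D2:**
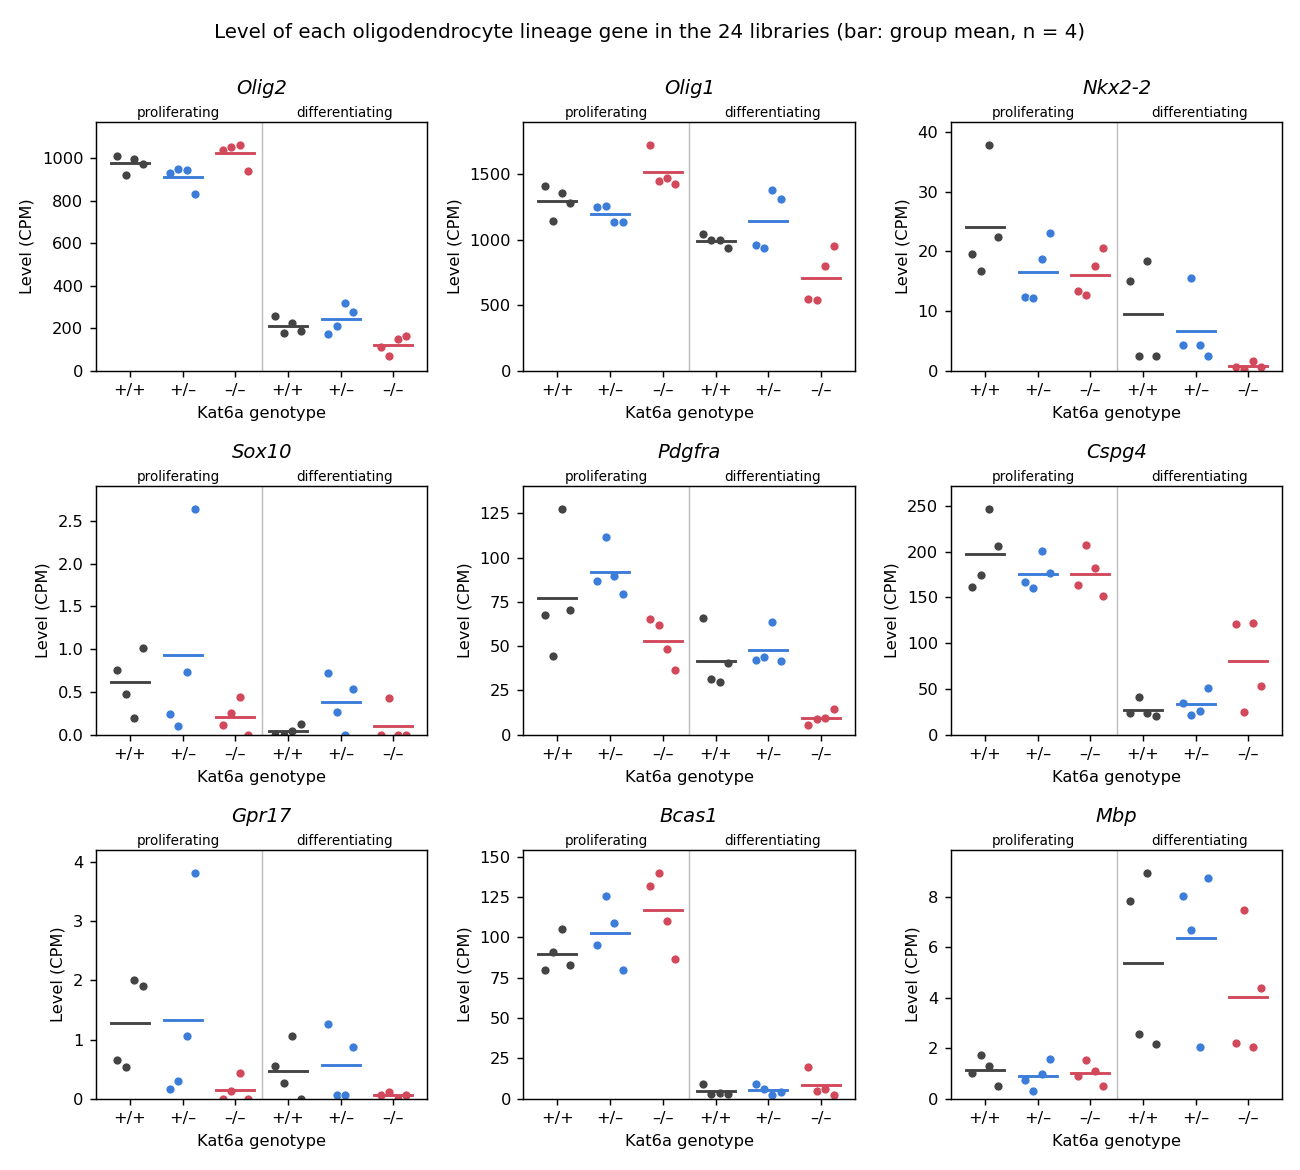
Level of each gene in CPM (linear axis from 0, own scale per gene) in the 24 libraries, by condition and *Kat6a* genotype, with points for libraries and bars for group means. *Pdgfra* in differentiating *Kat6a*–/– libraries lies between 5.44 and 14.8 CPM, under all *Kat6a*+/+ and *Kat6a*+/– libraries of that condition, while *Cspg4* reaches 122 CPM in the same group.

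*Olig2* (Entrez 50913) and *Olig1* (Entrez 50914) are neighbours on chromosome 16 of GRCm39, at 91019435 to 91025567 and 91066660 to 91068821, both on the plus strand. They are separated by 41.1 kb with 0 annotated protein-coding genes between them. The sequences before their start sites are shown because both genes were called in the same comparison and are the most abundant members. Each is 250 bases before the first base of the GENCODE canonical transcript, 5′ to 3′, and holds no annotated exon, although the *Olig2* window lies inside the span of longer *Olig2* transcripts. Capitals mark a CCAAT box or a GC box (GGGCGG) on either strand, so that a match on the other strand reads as its reverse complement.
Olig2, chr16:91022048-91022297, plus strand: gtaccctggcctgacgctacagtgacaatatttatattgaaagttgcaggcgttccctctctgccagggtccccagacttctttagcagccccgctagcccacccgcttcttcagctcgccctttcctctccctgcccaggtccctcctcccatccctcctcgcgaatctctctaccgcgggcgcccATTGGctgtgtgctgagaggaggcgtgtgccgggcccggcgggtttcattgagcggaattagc
Olig1, chr16:91066410-91066659, plus strand: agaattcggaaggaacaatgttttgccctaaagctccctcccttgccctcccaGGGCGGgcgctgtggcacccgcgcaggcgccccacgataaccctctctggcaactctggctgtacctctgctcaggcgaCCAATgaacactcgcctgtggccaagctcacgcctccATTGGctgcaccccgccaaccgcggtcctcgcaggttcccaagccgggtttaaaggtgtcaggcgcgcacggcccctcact
The *Olig1* window held 2 CCAAT and 1 GGGCGG, and the *Olig2* window held 1 CCAAT, where 36.5% of the windows of 21770 protein-coding genes held at least 1 CCAAT and 36.3% at least 1 GGGCGG. Neither held a CANNTG, which 64.8% of all windows did, and *Olig2* held 1 TATAAA, which 11.9% did. With 18 and 15 CpG dinucleotides against a median of 8, the windows of *Olig1* and *Olig2* had more than 79.7% and 72.1% of all windows. No marked match overlaps another, and a match is a description of letters only.

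*Olig2* was at 1010, 922, 998 and 974 CPM in the 4 proliferating *Kat6a*+/+ libraries and at 1038, 1052, 1062 and 941 CPM in *Kat6a*–/– libraries. The groups overlapped, and the log2 fold-change of 0.10 (SE 0.06) was not called (FDR 0.168). In differentiating cells it was at 258, 179, 227 and 185 CPM in the wildtype, at 172, 211, 317 and 276 CPM in the heterozygous and at 111, 70.1, 149 and 162 CPM in the null libraries. Every *Kat6a*–/– library lay under every library of the other genotypes. The fitted level was 1.64-fold lower than in *Kat6a*+/+ NSPCs (log2 fold-change −0.71, SE 0.18, FDR 0.0061). The null effect differed between the conditions by −0.91 on the log2 scale (interaction, SE 0.29, FDR 0.0398), a call that was lost without any 1 of 6 libraries (FDR 0.0516 to 0.0698: differentiating *Kat6a*+/+ replicates 1 and 3, proliferating *Kat6a*+/+ replicates 1 and 2 and proliferating *Kat6a*–/– replicates 1 and 2). The call in differentiating cells was lost without *Kat6a*–/– replicate 1 (FDR 0.0764) or replicate 3 (FDR 0.0505), although the fitted difference was then larger, at −1.13 and −1.34, and without *Kat6a*+/+ replicate 1 (−0.56, FDR 0.0507). With litter as a fixed term it was −0.74 (FDR 0.107).

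*Olig1* rose where *Olig2* was not called. Proliferating *Kat6a*+/+ libraries held 1408, 1146, 1356 and 1279 CPM and *Kat6a*–/– libraries 1723, 1449, 1469 and 1428 CPM, with no overlap. The *Kat6a*–/– level was 1.19-fold higher (log2 fold-change 0.26, SE 0.08, FDR 0.0218). In differentiating cells the values were 1041, 1001, 995 and 937 CPM in the wildtype, at 957, 935, 1379 and 1312 CPM in the heterozygous and at 548, 537, 799 and 955 CPM in the null libraries. *Kat6a*–/– replicate 4 lay within the *Kat6a*+/+ range and the other 3 below it. Here the level was 1.34-fold lower (log2 fold-change −0.42, SE 0.13, FDR 0.0169), and the difference between the conditions was called (interaction −0.76, SE 0.21, FDR 0.0222). Both calls of *Olig1* were near the threshold. In proliferating cells it was lost without *Kat6a*–/– replicate 1 (FDR 0.0635), without *Kat6a*+/+ replicate 2 (FDR 0.0602) and in the fit with a fixed litter effect (FDR 0.0586). In differentiating cells it was lost without any 1 of 4 libraries (FDR 0.0534 to 0.108: *Kat6a*+/+ replicates 1 and 3 and *Kat6a*–/– replicates 1 and 3), without quality weights (FDR 0.0695), with a fixed litter effect (FDR 0.122), in a limma-voom fit (FDR 0.0852), in edgeR (FDR 0.0919) and in DESeq2 (FDR 0.0565).

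The ratio of *Olig2* to *Olig1*, both per kb in the same library, needs no scaling between libraries. It was 0.672 ± 0.0337 (SD, n = 4) in proliferating and 0.190 ± 0.0277 in differentiating *Kat6a*+/+ NSPCs, and 0.604 ± 0.0523 and 0.154 ± 0.0276 in *Kat6a*–/– NSPCs. The groups of the 2 conditions did not overlap, with log2 differences of −1.84 in *Kat6a*+/+ and −1.99 in *Kat6a*–/– cells (exact two-sided permutation p = 0.0286 for both, the smallest that 4 against 4 libraries allow, adjusted p = 0.0654 over the 16 ratio comparisons made). Between *Kat6a*–/– and *Kat6a*+/+ libraries the log2 differences of −0.16 in proliferating and −0.31 in differentiating cells did not pass (exact permutation p = 0.0857 and 0.143, adjusted p = 0.171 and 0.208). No ratio comparison passed after adjustment, and the ratios were computed after the levels had been seen. The permutation takes libraries as independent, although some shared a litter and 6 embryos gave a library in both conditions. Since the exact permutation p cannot go under 0.0286, a comparison could pass only if most of the 16 reached that value. The adjusted values therefore do not show that the ratios were alike.

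*Nkx2-2* (Entrez 18088, chromosome 2, 147019466 to 147036163, minus strand) was at 19.6, 16.8, 37.8 and 22.5 CPM in proliferating wildtype and at 13.4, 12.6, 17.5 and 20.6 CPM in null libraries. The groups overlapped and the log2 fold-change of −0.58 (SE 0.27) was not called (FDR 0.126), although the fit with a fixed litter effect called it (−0.99, FDR 0.0143). In differentiating *Kat6a*+/+ libraries it was split, at 15.0, 2.40, 18.4 and 2.47 CPM, and in *Kat6a*+/– libraries it was at 4.40, 15.6, 4.28 and 2.42 CPM. The higher *Kat6a*+/+ libraries, replicates 1 and 3, held 42% and 34.9% of the weight of their group in the fit. The *Kat6a*–/– libraries held 0.688, 0.265, 1.63 and 0.710 CPM, from 5 to 27 reads each, and all lay below the others. The fitted level was 8.09-fold lower than in *Kat6a*+/+ NSPCs (log2 fold-change −3.02, SE 0.65, FDR 0.00191). It was not called without *Kat6a*–/– replicate 1 (−3.73, FDR 0.0973) or replicate 3 (−4.31, FDR 0.08), nor with litter as a fixed term (−2.63, FDR 0.186) or in a limma-voom fit (−3.00, FDR 0.102). The interaction of −2.72 (SE 1.18) did not pass (FDR 0.126), and edgeR (FDR 0.031) and DESeq2 (FDR 0.00501) called it.

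In differentiating cells, markers of the ventral telencephalon were lower in *Kat6a*–/– NSPCs, as *Nkx2-2* was. The 8 genes *Dlx1*, *Dlx2*, *Dlx5*, *Dlx6*, *Gsx2*, *Nkx2-1*, *Lhx6* and *Lhx8* together were at 33.8, 6.06, 11.1 and 20.7 CPM in the differentiating wildtype, at 2.17, 17.1, 13.0 and 2.89 CPM in the heterozygous and at 2.13, 2.49, 1.21 and 1.03 CPM in the null libraries. Of the 8, 5 were tested and all 5 were lower in *Kat6a*–/– NSPCs (median log2 fold-change −3.62). In the *Kat6a*–/– group 7 of the 8 were under 1 CPM in every library and 2 had no read, and in the *Kat6a*+/+ group 3 were under 1 CPM and 2 had no read. *Kat6a*+/+ replicate 4 had the second highest marker sum of its group with one of the lowest *Nkx2-2* levels. In proliferating libraries the sum was 0.499 to 5.43 CPM, where *Nkx2-2* was at 12.2 to 37.8 CPM. From proliferating to differentiating *Kat6a*+/+ NSPCs, 4 of the 5 tested markers were higher (median log2 fold-change 3.17), while *Nkx2-2* was lower (−1.80, FDR 0.00199). The part of these markers in the *Nkx2-2* difference was not tested. A noncoding gene, *Nkx2-2os*, overlaps *Nkx2-2* on the other strand, and the strand setting of the counting was not given.

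*Sox10* (Entrez 20665, chromosome 15, 79039108 to 79049469, minus strand) was near the limit of detection. Proliferating libraries held 30, 8, 2 and 8 reads in *Kat6a*+/+, 3, 1, 9 and 27 in *Kat6a*+/– and 1, 2, 4 and 0 in *Kat6a*–/– NSPCs, that is at most 2.64 CPM. Differentiating libraries held 0, 0, 1 and 3 reads in *Kat6a*+/+, 12, 4, 0 and 8 in *Kat6a*+/– and 0, 8, 0 and 0 in *Kat6a*–/– NSPCs. The genotypes overlapped in both conditions. Fitted with no filter on low counts, the log2 fold-change of *Kat6a*–/– against *Kat6a*+/+ was −1.64 in proliferating (FDR 0.201) and −0.17 in differentiating NSPCs (FDR 0.839). In differentiating NSPCs it was 1.67 for *Kat6a*+/– against *Kat6a*+/+ (FDR 0.339) and −1.84 for *Kat6a*–/– against *Kat6a*+/– (FDR 0.051). No difference of *Sox10* between genotypes was called, on read counts too low to show that the levels were alike. The summed level of 8 markers of neural crest, Schwann cells and melanocytes was 38.6 to 47.4 CPM in differentiating *Kat6a*+/+ and 24.7 to 28.4 CPM in *Kat6a*–/– libraries, with 3 of 5 tested markers lower, and their part in the *Sox10* values was not tested.

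*Pdgfra* (Entrez 18595, chromosome 5, 75311994 to 75358876, plus strand) encodes the receptor that keeps oligodendrocyte progenitors dividing. Proliferating *Kat6a*+/+ libraries held 67.5, 44.4, 127 and 70.5 CPM, *Kat6a*+/– libraries 86.8, 111, 89.9 and 79.5 CPM and *Kat6a*–/– libraries 65.2, 62.0, 48.3 and 36.7 CPM. The *Kat6a*–/– libraries lay within and below the *Kat6a*+/+ range and below all *Kat6a*+/– libraries. The log2 fold-change was −0.54 against *Kat6a*+/+ (SE 0.24, FDR 0.099, not called) and −0.83 against *Kat6a*+/– (SE 0.23, FDR 0.0297). The second call was lost without any 1 of 6 libraries (FDR 0.0515 to 0.212: heterozygous replicates 1, 2 and 4 and null replicates 1, 2 and 4), in edgeR (FDR 0.0986), with the replicate block (FDR 0.128) and with no litter block (FDR 0.0861). Without *Kat6a*+/+ replicate 2 the difference from wildtype was called (−0.73, FDR 0.0173), and so it was in the fit with a fixed litter effect (−0.74, FDR 0.0167).

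In differentiating cells *Pdgfra* was at 65.6, 31.3, 29.8 and 40.4 CPM in the wildtype, at 42.1, 43.7, 63.6 and 41.7 CPM in the heterozygous and at 5.44, 9.08, 9.22 and 14.8 CPM in the null libraries. The *Kat6a*–/– libraries held 79 to 229 reads of it, and all 4 lay below the lowest library of either other genotype. The level was 4.86-fold lower than in *Kat6a*+/+ NSPCs (log2 fold-change −2.28, SE 0.29, FDR 6.02e-05) and 5.08-fold lower than in *Kat6a*+/– NSPCs (−2.34, SE 0.35, FDR 0.000537). Over the alternatives and the libraries left out, the difference from *Kat6a*+/+ stayed between −2.45 and −1.87 and was always called, with litter as a fixed term at −2.15 (FDR 0.0151). The difference from *Kat6a*+/– was not called without null replicate 1 (−2.29, FDR 0.0562) or null replicate 3 (−2.48, FDR 0.0718). The null effect was larger in differentiating than in proliferating cells (interaction −1.65, SE 0.48, FDR 0.0264). That call was lost without differentiating *Kat6a*–/– replicate 1 (FDR 0.0509) or proliferating *Kat6a*–/– replicate 2 (FDR 0.0506), and the interactions of *Olig2*, *Olig1*, *Pdgfra* and *Cspg4* were all lost with litter as a fixed term (FDR 0.0551 to 0.0709).

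*Cspg4* (Entrez 121021, chromosome 9, 56772317 to 56807187, plus strand) went the other way. It was at 161, 175, 247 and 207 CPM in proliferating wildtype and at 163, 207, 182 and 151 CPM in null libraries, overlapping, with a log2 fold-change of −0.18 (SE 0.12, FDR 0.29). In differentiating cells it was at 23.3, 41.0, 23.9 and 20.1 CPM in the wildtype, at 35.1, 21.8, 26.4 and 51.0 CPM in the heterozygous and at 121, 25.3, 122 and 53.6 CPM in the null libraries. *Kat6a*–/– replicates 1, 3 and 4 lay above all *Kat6a*+/+ libraries and replicate 2 within their range. The fitted level was 4.30-fold higher in *Kat6a*–/– NSPCs (log2 fold-change 2.10, SE 0.27, FDR 5.87e-05), beside a ratio of means set by 80.3 ± 48.6 against 27.1 ± 9.40 CPM. The call rested on the high replicates: it was lost without *Kat6a*–/– replicate 3 (0.88, FDR 0.334) or replicate 1 (1.14, FDR 0.192), without quality weights (1.36, FDR 0.0562) and in a limma-voom fit (1.31, FDR 0.0754), and was kept in edgeR (1.57, FDR 0.0287) and when litter was fitted as a fixed term (2.18, FDR 0.0495). The interaction of 1.52 (SE 0.51, FDR 0.0479) was lost without any 1 of 20 of the 24 libraries (FDR up to 0.116). It was also lost with embryo as a random block (1.53, FDR 0.0516), a fit made because 6 embryos gave a library in both conditions, with library totals (1.38, FDR 0.0596) and with no filter (1.53, FDR 0.0521).

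The sequence before the *Cspg4* start is shown because this was the member that rose in differentiating *Kat6a*–/– NSPCs. It covers the same 250 bases before the canonical start, and capitals again mark a CCAAT box or a GC box on either strand.
Cspg4, chr9:56772067-56772316, plus strand: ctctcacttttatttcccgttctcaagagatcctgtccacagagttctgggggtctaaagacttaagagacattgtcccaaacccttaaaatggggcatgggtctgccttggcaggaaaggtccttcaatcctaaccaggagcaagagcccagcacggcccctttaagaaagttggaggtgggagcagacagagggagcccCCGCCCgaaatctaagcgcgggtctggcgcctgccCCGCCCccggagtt
This window held 2 GC boxes and no CCAAT box, no match to the other searched motifs, and 9 CpG dinucleotides.

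Markers of pericytes and of mesenchymal cells were read beside *Cspg4*, since pericytes carry NG2. The 8 pericyte and mural markers *Pdgfrb*, *Rgs5*, *Kcnj8*, *Abcc9*, *Vtn*, *Acta2*, *Tagln* and *Anpep* together were at 295, 614, 284 and 203 CPM in the differentiating wildtype, at 364, 1700, 441 and 105 CPM in the heterozygous and at 674, 118, 700 and 442 CPM in the null libraries. Within the *Kat6a*–/– group their order was that of *Cspg4*, while *Kat6a*+/– replicate 2, with the highest sum of all, had 21.8 CPM of *Cspg4*. Of the 8 markers, 4 were tested, and 2 were higher and none lower in *Kat6a*–/– NSPCs. The 9 mesenchymal and meningeal markers were at 25.6 to 58.2 CPM in *Kat6a*+/+ and at 264, 33.7, 231 and 159 CPM in *Kat6a*–/– libraries, where 4 of the 9 were under 1 CPM and 1 had no read. Of these, 4 were tested and 3 were higher. The part of such cells in the *Cspg4* level was not tested. In proliferating libraries, where *Cspg4* was at 151 to 247 CPM, the pericyte and mural sum was 1.61 to 4.30 CPM.

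**Figure D3:**
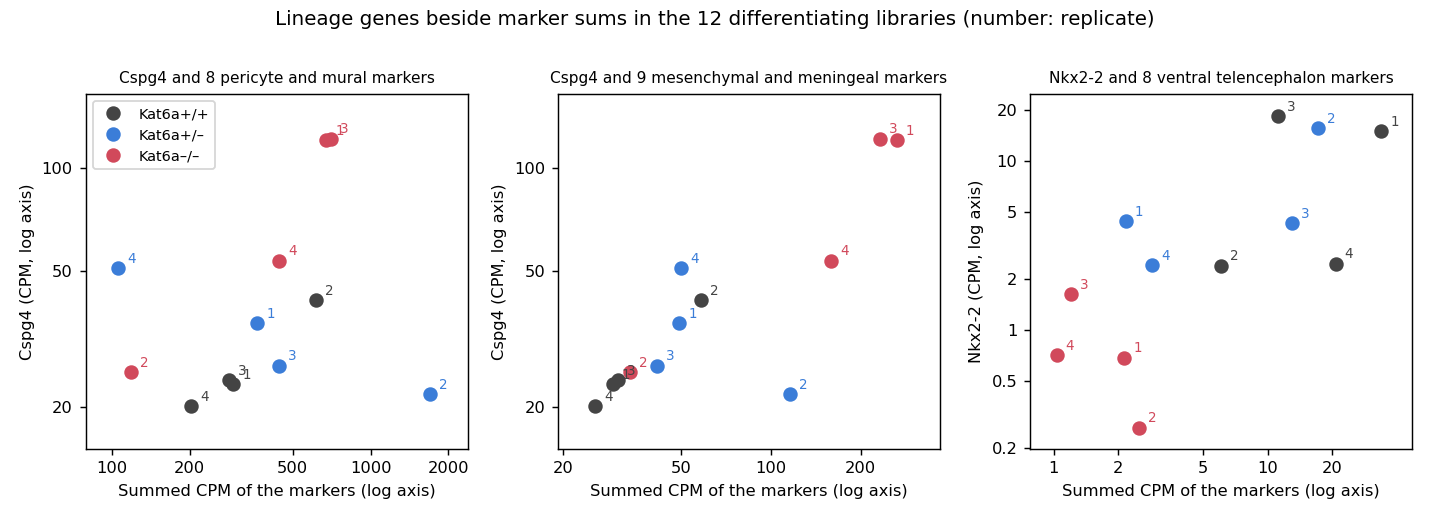
*Cspg4* against the summed CPM of pericyte and mural markers (left) and of mesenchymal and meningeal markers (middle), and *Nkx2-2* against ventral telencephalon markers (right), in the 12 differentiating libraries on log axes, with colour for genotype and a number for the replicate. *Kat6a*–/– replicates 1 and 3 are high on both axes of the first 2 plots, and replicate 2 lies within or below the *Kat6a*+/+ range on both. Replicate 4 is at 442 CPM of pericyte and mural markers, under *Kat6a*+/+ replicate 2 (614 CPM) and *Kat6a*+/– replicate 2 (1700 CPM). All 4 *Kat6a*–/– libraries are low on both axes of the third.

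*Cspg4* and *Pdgfra*, both read as progenitor markers, thus moved apart. Their ratio per kb was 2.99 ± 0.921 in proliferating and 0.792 ± 0.450 in differentiating *Kat6a*+/+ NSPCs, and 3.67 ± 0.746 and 11.2 ± 9.78 in *Kat6a*–/– NSPCs (mean ± SD, n = 4). In differentiating cells the *Kat6a*–/– ratios of 2.98 to 23.7 lay above all *Kat6a*+/+ ratios of 0.38 to 1.4, a log2 difference of 3.49 (exact permutation p = 0.0286, adjusted p = 0.0654). In proliferating cells the difference was 0.32 (exact permutation p = 0.257, adjusted p = 0.343). Both genes carry this difference, and *Kat6a*–/– replicate 2, whose *Cspg4* level was in the wildtype range, still had a ratio above that range.

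**Figure D4:**
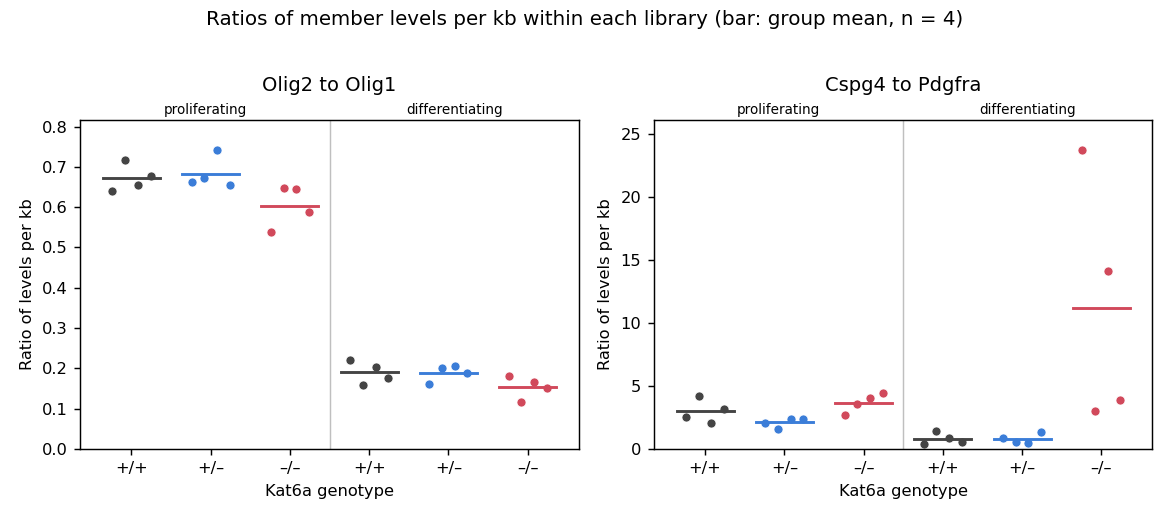
Ratio of *Olig2* to *Olig1* and of *Cspg4* to *Pdgfra*, each from CPM per kb within a library, by condition and genotype, with points for libraries and bars for means of 4. The *Olig2* to *Olig1* ratio separates the conditions in every genotype, and the *Cspg4* to *Pdgfra* ratio is at 2.98 or above in all differentiating *Kat6a*–/– libraries and at 1.4 or below in the other differentiating libraries.

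*Gpr17* (Entrez 574402, chromosome 18, 32076050 to 32082888, minus strand) encodes a receptor of cells that are about to make myelin. Proliferating libraries held 26, 9, 20 and 15 reads in *Kat6a*+/+, 2, 3, 13 and 39 in *Kat6a*+/– and 0, 1, 4 and 0 in *Kat6a*–/– NSPCs. All *Kat6a*–/– libraries were below all *Kat6a*+/+ libraries, at 0 to 0.438 against 0.541 to 2.01 CPM. The fitted log2 fold-change was −3.28 (SE 0.92, FDR 0.0182), a value that depends on the offset added to such low counts. Differentiating libraries held 10, 5, 22 and 0 reads in *Kat6a*+/+, 21, 1, 1 and 13 in *Kat6a*+/– and 1, 2, 0 and 1 in *Kat6a*–/– NSPCs, and these overlapped (log2 fold-change −2.19, SE 0.73, FDR 0.0221). edgeR called neither difference (FDR 0.0865 and 0.146), and the first was lost without null replicate 4 (−2.46, FDR 0.153), null replicate 1 (FDR 0.0588) or wildtype replicate 3 (FDR 0.0555). The second was also lost once litter was a fixed term (FDR 0.328), without quality weights (FDR 0.262), and without *Kat6a*+/+ replicate 1 or 3 or *Kat6a*–/– replicate 1 or 3 (FDR 0.105 to 0.614 for the libraries). *Gpr17* lies opposite the gene *Lims2* with overlapping exons, so that without the strand setting a part of its reads may belong to the other gene. *Olig1*, *Olig2*, *Pdgfra*, *Bcas1* and *Mbp* also share exon positions with annotated genes of the other strand, and the same limit holds for them.

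*Bcas1* (Entrez 76960, chromosome 2, 170188911 to 170269765, minus strand) was at 79.6, 91.1, 105 and 82.8 CPM in proliferating wildtype and at 132, 140, 110 and 86.4 CPM in null libraries. *Kat6a*–/– replicate 4 was within the *Kat6a*+/+ range and the other 3 above it. The level was 1.31-fold higher (log2 fold-change 0.39, SE 0.12, FDR 0.0246). The call was lost without any 1 of 4 libraries (FDR 0.0555 to 0.0792: *Kat6a*+/+ replicates 1 and 4 and *Kat6a*–/– replicates 1 and 2), without the litter block (FDR 0.0756) and in edgeR (FDR 0.0646). In differentiating cells it was at 9.47, 3.17, 3.86 and 2.68 CPM in wildtype and at 19.8, 5.04, 6.15 and 2.58 CPM in null libraries, overlapping, and was not called (0.37, SE 0.51, FDR 0.569).

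*Mbp* (Entrez 17196, chromosome 18, 82493207 to 82603763, plus strand) was low in proliferating cells, at 0.507 to 1.74 CPM in *Kat6a*+/+ and 0.499 to 1.55 CPM in *Kat6a*–/– libraries (log2 fold-change −0.13, SE 0.48, FDR 0.865). In differentiating cells it was at 7.82, 2.57, 8.93 and 2.18 CPM in the wildtype, at 8.02, 6.69, 2.06 and 8.74 CPM in the heterozygous and at 2.20, 7.48, 2.05 and 4.39 CPM in the null libraries. The 3 genotypes overlapped, and *Kat6a*–/– replicate 2 was within the upper range of *Kat6a*+/+. The weighted fit called it lower (log2 fold-change −1.35, SE 0.48, FDR 0.0306). This call depended on the weights: the log2 fold-change was −0.34 without them (FDR 0.723), −0.15 in a limma-voom fit (FDR 0.898) and −0.41 in edgeR (FDR 0.653), and it was also lost without *Kat6a*+/+ replicate 1 (−0.91, FDR 0.202) or 3 (−0.79, FDR 0.24) and *Kat6a*–/– replicate 1 (−0.57, FDR 0.774) or 3 (−0.32, FDR 0.895).

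Between the conditions, differentiating against proliferating *Kat6a*+/+ NSPCs gave 1 higher member (36.7% of 13590 genes tested) and 7 lower members (36.2%), all 9 being tested in this fit. *Bcas1* was 21.8-fold, *Cspg4* 7.59-fold, *Olig2* 4.64-fold, *Nkx2-2* 3.49-fold, *Pdgfra* 1.78-fold and *Olig1* 1.30-fold lower in differentiating cells (FDR 6.4e-09 to 0.0326), and *Sox10* was lower on few reads (FDR 0.0075). *Mbp* was 3.89-fold higher (log2 fold-change 1.96, SE 0.69, FDR 0.0144). The *Olig1* call was lost without any 1 of 13 of the 24 libraries (FDR up to 0.0985) and with library totals (FDR 0.0674), that of *Pdgfra* without proliferating wildtype replicate 3 (−0.54, FDR 0.0595) and that of *Mbp* without proliferating wildtype replicate 1 (1.88, FDR 0.0661). In *Kat6a*–/– NSPCs no member was called higher (35.8% of all genes were) and 6 were lower (33.5%). There *Nkx2-2* was 23.0-fold, *Bcas1* 18.6-fold, *Olig2* 8.74-fold, *Pdgfra* 5.60-fold, *Cspg4* 2.64-fold and *Olig1* 2.20-fold lower (FDR 4.17e-11 to 0.00115), and *Mbp* at 1.90 (SE 0.87) missed the threshold (FDR 0.0571). *Mbp* was higher in all 4 differentiating than in all 4 proliferating null libraries (exact permutation p = 0.0286, the smallest possible), and was called in edgeR (2.02, FDR 0.00536), in DESeq2 (FDR 0.00111), in the fit with a fixed litter effect (FDR 0.0131), with no filter (FDR 0.0499) and without any 1 of 6 libraries (FDR 0.0281 to 0.0474). The permutation test treats libraries as independent, although 6 embryos, *Kat6a*–/– ones among them, gave a library in both conditions. The litter block of the fit of all 24 libraries had a correlation of 0.00365. With embryo as a random block, 8 members were called between the conditions in *Kat6a*+/+ and 6 in *Kat6a*–/– NSPCs. The same fit called 9862 and 9318 of the 13590 genes. Both contrasts use other libraries, and the interaction is the test of their difference: it was called for 3 lower members (7.58% of all genes) and 1 higher (6.36%). The lower ones were *Olig2*, *Olig1* and *Pdgfra* and the higher one was *Cspg4*, with values given above. The interaction of *Mbp* was −0.06 (SE 1.11, FDR 0.978), of *Bcas1* 0.23 (SE 0.57, FDR 0.827), of *Gpr17* 1.30 (SE 1.94, FDR 0.703) and of *Sox10* 1.92 (SE 1.72, FDR 0.49), all with wide errors.

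Other genes of the lineage were read from lists. The shares of all genes called, to read beside the counts below, are those given above for the same comparisons: 26.7% higher and 27.7% lower in differentiating and 16.2% and 13.8% in proliferating NSPCs. The counts in differentiating cells fell by more than 1.5 times without null replicate 1 or 3: with 1 library left out, 2 to 10 progenitor and specification genes were called (9 with all libraries), 0 to 6 committed precursor genes (6), 3 to 9 myelin genes (9), 1 to 9 signal genes (8) and 1 to 4 inhibitors (4). Of 15 progenitor and specification genes, 14 were tested in both conditions. In differentiating *Kat6a*–/– against *Kat6a*+/+ NSPCs, 1 was higher and 8 were lower (median log2 fold-change −0.80, −0.02 over all genes), and in proliferating NSPCs 7 were higher and 3 were lower (median 0.48, −0.0045 over all genes). *Sox5*, a SoxD factor of progenitors, was lower in differentiating cells (−1.44, SE 0.21, FDR 0.000138), a call lost without null replicate 1 (−0.74, FDR 0.178) or 3 (−0.64, FDR 0.31), in edgeR, DESeq2 and limma-voom, without weights and with a fixed litter effect (FDR 0.058 to 0.178). Lower genes also included *Sox6*, *Sox8*, *Lhfpl3*, *Cacng4*, *Vcan* and *Snx22*, and the higher one was *Matn4*, from 0.741 ± 0.354 to 9.20 ± 9.26 CPM. In proliferating cells *Ptprz1*, a receptor phosphatase of progenitors, rose from 1550 ± 273 to 3151 ± 425 CPM (log2 fold-change 0.98, SE 0.15, FDR 0.000531) and *C1ql1* rose on a low level (1.64, SE 0.32, FDR 0.00236).

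Of 10 genes of committed precursors, 6 were tested in differentiating cells, with 4 higher and 2 lower (median 0.42). *Itpr2*, a calcium channel gene of committed precursors, was at 19.8 ± 1.93 CPM in wildtype and 33.5 ± 7.24 CPM in null NSPCs (log2 fold-change 0.99, SE 0.11, FDR 2.01e-05), and *Fyn*, a kinase gene, was also higher (0.40, SE 0.08, FDR 0.00115). Without null replicate 1 or 3 neither was called (*Itpr2* 0.72 and 0.64, FDR 0.0506 and 0.0964, *Fyn* 0.25 for both, FDR 0.258 and 0.341), and *Fyn* was also lost without weights, in limma-voom and with a fixed litter effect (FDR 0.0559 to 0.0682). *Myrf*, the regulator of myelin genes, was higher in differentiating (1.13, SE 0.32, FDR 0.00918) and lower in proliferating NSPCs (−0.76, SE 0.26, FDR 0.0448). In proliferating cells 7 were tested, 1 was higher and 2 were lower, with *Zfp536* lower (−2.15, SE 0.41, FDR 0.00206) and *Tns3* higher (0.37, SE 0.07, FDR 0.00259).

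Of 18 myelin genes, 12 passed the filter on low counts in differentiating and 9 in proliferating NSPCs, and the others of the list were not tested there. In differentiating *Kat6a*–/– NSPCs 4 were higher and 5 were lower (median −0.09). *Car2*, a carbonic anhydrase gene, was at 31.3 ± 1.77 CPM in wildtype and 59.9 ± 13.9 CPM in null NSPCs (0.90, SE 0.11, FDR 4.51e-05). *Mal*, a gene of a myelin proteolipid, rose from 0.831 ± 0.218 to 4.14 ± 2.20 CPM (2.04, SE 0.27, FDR 6.57e-05). *Ermn* fell by 2.96, *Cldn11* by 2.41, *Ugt8a* by 2.18, *Aspa* by 1.1 and *Cnp* by 0.66 on the log2 scale (FDR 8.45e-05 to 0.048). The called genes do not share a direction, and *Car2*, *Mal* and *Trf* are also used by cells outside the lineage. In proliferating cells 2 were higher and 1 was lower (median 0.05), with *Car2* again higher (0.78, SE 0.15, FDR 0.0022) and *Cldn11* lower (−2.55, SE 0.55, FDR 0.00449).

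Of 10 genes of signals to the lineage, 9 were tested in differentiating cells, with 6 higher and 2 lower (median 0.97). *Pdgfa*, which encodes the main ligand of PDGFRA, was at 41.9 ± 13.8 CPM in wildtype and 120 ± 68.0 CPM in null NSPCs (log2 fold-change 2.03, SE 0.25, FDR 3.96e-05), opposite in direction to its receptor gene. *Shh*, the Sonic hedgehog gene, was higher on a low level, from 0.685 ± 0.328 to 3.42 ± 1.81 CPM (2.76, SE 0.36, FDR 6.21e-05). Both calls were lost without null replicate 1 (*Pdgfa* 1.22, FDR 0.119, *Shh* 1.85, FDR 0.141) or 3 (*Pdgfa* 1.1, FDR 0.202, *Shh* 1.56, FDR 0.245), and *Shh* also in limma-voom (FDR 0.0545). The hedgehog receptor and target gene *Ptch1* was lower (−0.68, SE 0.10, FDR 0.000119), as was *Gli2* (−0.71, SE 0.19, FDR 0.0082). *Pdgfb*, *Pdgfc*, *Pdgfrb* and *Erbb3* made up the other higher genes, and *Pdgfrb* is also one of the pericyte and mural markers above, so it counts in both lists. In proliferating cells 5 were tested and none was called in limma (FDR 0.0536 to 0.865, with *Ptch1* at −0.22 and *Smo* at −0.17), of which 2 had an unadjusted p under 0.05. Of 5 inhibitors of differentiation, all tested, 3 were lower and 1 higher in differentiating cells (median −1.01). The Notch target *Hes5* was at 33.7 ± 17.6 CPM in wildtype and 1.92 ± 1.1 CPM in null NSPCs (−4.58, SE 0.42, FDR 6.59e-06), *Id2* (−1.01, SE 0.12, FDR 3.46e-05) and *Id4* were lower, and *Hes1* was higher. *Id2* was not called without null replicate 1 (−0.72, FDR 0.0716) or 3 (−0.68, FDR 0.122). In proliferating cells *Id4* was higher (1.30, SE 0.31, FDR 0.0069, lost with a fixed litter effect, FDR 0.109) and *Lingo1* was not called (−0.50, SE 0.21, FDR 0.081).

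**Figure D5:**
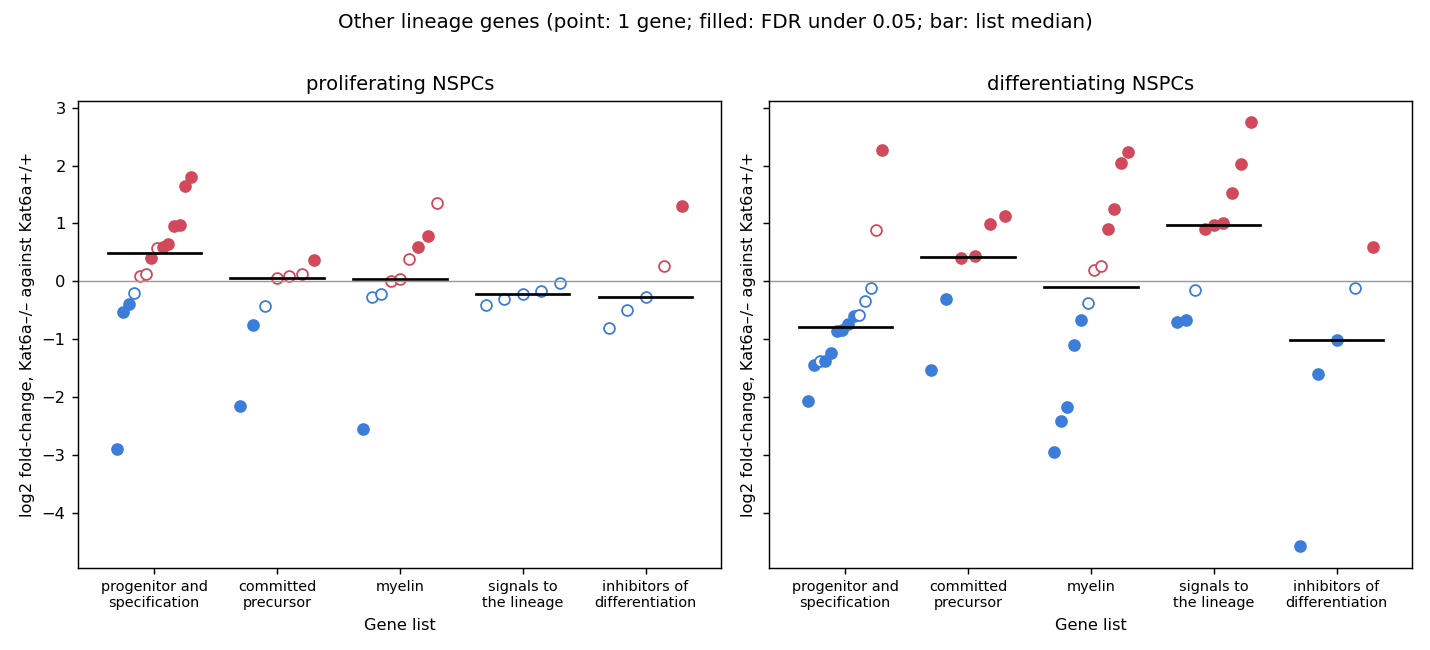
Log2 fold-change of *Kat6a*–/– against *Kat6a*+/+ NSPCs for each tested gene of 5 lists, with 1 point a gene in ascending order, filled where the FDR is under 0.05 and black bars at the list medians. The progenitor and specification list lies mostly above 0 in proliferating cells (median 0.48) and mostly below 0 in differentiating cells (median −0.80).

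The genes whose log2 CPM followed a member most closely over the 24 libraries are given as a description, since libraries of a condition and genotype share most of such a likeness. For *Olig2* they were *Dis3*, *Zcchc8*, *Hnrnpa1*, *Zeb1* and *Ddx11* (Pearson's r 0.981 to 0.983), and within the 12 proliferating libraries alone the same genes had r from −0.157 to 0.408, and from 0.869 to 0.940 within the 12 differentiating ones. For *Pdgfra* they were *Elavl4*, *Spc24*, *Nfatc2ip*, *Stmn1* and *Cenpf* (r 0.935 to 0.948), with r from 0.652 to 0.773 within the proliferating and from 0.920 to 0.956 within the differentiating libraries. *Elavl4* is one of the neuron markers read here, and the other genes are on none of the lists. For *Mbp* they were *D130043K22Rik*, *Aadat*, *Slc30a10*, *Dnm3* and *Hadh* (r 0.879 to 0.938). Their r ran from 0.085 to 0.809 within the proliferating and from 0.741 to 0.902 within the differentiating libraries. For *Sox10* they were *Mrpl45*, *Kcnj2*, *Mto1*, *Pwwp4b* and *Gpr17* (r 0.687 to 0.729), on read counts too low for a likeness to be read from them.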

How the data were processed

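The deposited tables hold raw read counts per gene: the authors sequenced stranded mRNA libraries from 200 ng of RNA, aligned the reads to mm39 with Rsubread and counted them with featureCounts on strict RefSeq genes. Software versions for aligning and counting the RNA reads, and the strand setting, are not given in the sources used here. Proliferating libraries were fitted with limma-voom and litter as a random block (correlation 0.287, 12276 protein-coding genes), differentiating libraries with limma-trend on log2 CPM (prior count 2) and quality weights (13339 genes), and all 24 together with limma-voom and the litter block (13590 genes). Counts were TMM scaled, low genes filtered, and the FDR threshold was 0.05. R 4.3.3, limma 3.58.1, edgeR 4.0.16 and DESeq2 1.42.0 were used, the last 2 also for alternative tests. The proliferating and differentiating fits were tried on simulated counts that had neither litter effects nor libraries of poorer quality. The fit of all 24 libraries was not tried in that way. Library totals of 7826660 to 40838203 counts set the precision of low genes. Of 26411 genes, 26359 had a biotype in a RefSeq table. Positions, overlaps and promoter bases are those of GENCODE M39 on GRCm39. Groups came from the sample titles. Libraries of a group came from different or shared litters, and counts of replicates differed by more than sampling noise (chi-square per degree of freedom at least 5.81), so none were merged. All members were named, with the called genes of each other lineage list (the 2 smallest FDRs and others, except for 1 result that is not reported here) and the 5 genes most like *Olig2*, *Sox10*, *Pdgfra* and *Mbp*. The members and lists were chosen with earlier results of these data known, and the promoter motifs after the sequences were seen.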

Additional observations from a re-analysis of the deposited data

Results flagged for a closer look

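Of 54 groups of 4 libraries (9 genes in 6 groups), 5 held a library whose gap to its nearest neighbour, as a share of the group's range, was above Dixon's critical value, where chance gives about 1 in 20 groups. *Olig1* was highest in proliferating *Kat6a*–/– replicate 1 (1723 CPM), and *Olig2* was lowest in proliferating *Kat6a*+/– replicate 4 (832 CPM). *Nkx2-2* was highest in differentiating *Kat6a*+/– replicate 2 (15.6 CPM), *Pdgfra* in differentiating *Kat6a*+/– replicate 3 (63.6 CPM), and *Sox10* in differentiating *Kat6a*–/– replicate 2 (0.425 CPM, 8 reads where the other 3 libraries had 0).

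The effect of the null genotype differed between differentiating and proliferating NSPCs for 4 genes by the interaction term of limma, by −0.91 for *Olig2*, −0.76 for *Olig1*, −1.65 for *Pdgfra* and 1.52 for *Cspg4* on the log2 scale. The FDRs were 0.0398, 0.0222, 0.0264 and 0.0479.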

How the results depend on the processing

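Replicate numbers did not pair the libraries: of 24 pairs of same-numbered libraries, 5 had a correlation of deviations above 0.1 (−0.468 to 0.481). With the number as a replicate block, differentiating *Kat6a*–/– against *Kat6a*+/+ NSPCs still gave 7 called members, with *Bcas1* gained (0.73, FDR 0.0194) and *Mbp* lost (FDR 0.0633), proliferating ones gave 4, and *Kat6a*–/– against *Kat6a*+/– proliferating ones gave 1 in place of 3. Over all genes, these comparisons called 7211, 3519 and 1183 genes with the replicate block.

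For *Kat6a*–/– against *Kat6a*+/+ proliferating NSPCs, edgeR called 1 member in place of 3, and leaving out a library gave 0 to 3. Against *Kat6a*+/–, edgeR and the fit with no litter block each called 1 in place of 3, and leaving out a library gave 1 to 3. In differentiating NSPCs against *Kat6a*+/+, edgeR and DESeq2 called 4 in place of 7, the fit without quality weights and the exact permutation test of single members (unadjusted, smallest p 0.0286) 3, limma-voom and litter as a fixed term 2, and leaving out a library gave 1 to 7. Against *Kat6a*+/–, the fit with no filter, limma-voom and the exact permutation test called 3 in place of 5, litter as a fixed term 1, and leaving out a library gave 0 to 7. For the interaction, litter as a fixed term called 0 in place of 4, and leaving out a library gave 1 to 4. The causes were not tested.

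Over all genes, 7258 were called between differentiating *Kat6a*–/– and *Kat6a*+/+ NSPCs, against 3244 in edgeR, 4076 in DESeq2, 1785 with litter as a fixed term, 3097 without weights, 2806 in limma-voom and 939 to 9505 with a library left out. In proliferating NSPCs 3686 were called, against 3302 in edgeR, 1936 with litter as a fixed term and 2317 to 3996 with a library left out. Against *Kat6a*+/–, 1813 proliferating genes were called (edgeR 951, replicate block 1183, no litter block 960, library left out 696 to 2200) and 5007 differentiating ones (edgeR 1656, DESeq2 2621, no filter 3031, litter as a fixed term 386, no weights 1616, limma-voom 1406, library left out 243 to 7397). For the interaction 1895 were called, against 1558 with litter as a fixed term and 1265 to 3520 with a library left out.

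Sign changes arose in values that were not called. For *Kat6a*+/– against *Kat6a*+/+ proliferating NSPCs, *Gpr17* was 0.20 in edgeR and 0.11 in DESeq2 (−1.14 to 0.34 with a library left out). In differentiating NSPCs, *Olig2* was 0.20 in edgeR, 0.21 in DESeq2, 0.18 without weights and 0.19 in limma-voom (−0.29 to 0.27), and *Mbp* was 0.023 with no filter, 0.24 in edgeR, 0.25 in DESeq2, 0.70 with litter as a fixed term, 0.069 with the replicate block, 0.31 without weights and 0.29 in limma-voom (−0.62 to 0.53). With litter as a fixed term *Olig1* was −0.036 and *Nkx2-2* 0.27, and with the replicate block *Bcas1* was −0.018. With a library left out, *Olig1* ran from −0.019 to 0.28, *Bcas1* from −0.54 to 0.76, *Pdgfra* from −0.11 to 0.47 and *Gpr17* from −1.28 to 0.97. For *Kat6a*–/– against *Kat6a*+/– proliferating NSPCs, *Cspg4* was 0.017 in edgeR, 0.016 in DESeq2, 0.011 with the replicate block and 0.013 with no litter block (−0.10 to 0.059), *Nkx2-2* was 0.023 with no litter block (−0.20 to 0.14), and *Mbp* ran from −0.15 to 0.66. *Bcas1* ran from −0.16 to 0.91 in differentiating ones. Against *Kat6a*+/+, *Mbp* ran from −0.34 to 0.18 in proliferating NSPCs. Interactions ran from −0.53 to 0.25 for *Mbp*, −0.058 to 2.00 for *Gpr17* and −0.28 to 0.58 for *Bcas1*.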
